A study of Mus musculus with 24 samples.

Results

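The genes described here are the Wnt ligands, their receptors, the secreted Wnt antagonists and the genes that feed back on the pathway in the receiving cell. They were taken from the count table by symbol. Every gene named Wnt, Fzd, Sfrp or Dkk with a number was included, together with Lrp5, Lrp6, Axin2, Apcdd1, Nkd1, Notum, Wif1, Frzb, Rnf43 and Znrf3. The rule found 47 of the 21965 genes in the table: 19 ligands, 12 receptors, 11 antagonists and 5 feedback genes. Of these, 43 had a sum of at least 10 counts over all libraries and were tested among 17167 genes. Wnt1, Wnt3a, Wnt8a and Dkk4 were not tested, and Wnt8a and Dkk4 stayed at 3 counts or fewer in every library.

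The libraries come from OL-Ribotag mice, in which oligodendrocytes (OLs), the myelinating cells of the spinal cord, carry an HA-tagged ribosomal protein. According to the study's methods, Cre was induced with tamoxifen in every group including the controls. As limitations the study names RNA of other cells, such as microglia and macrophages, among ribosome-bound RNA, and activity of this Cre in Schwann cells. It kept only OL changes that also met criteria on the level in OLs against all RNA. Such a filter was not applied here. Female mice, 10 to 12 weeks old by the labels while the methods give a younger age for the injury, received a T9 contusion of 50 kdyn (spinal cord injury, SCI), and a 5 mm segment across the lesion was collected at 2, 10 or 42 days post injury (dpi). Naive mice were not injured, and the study describes no sham surgery. By its methods, injured mice also had anesthesia, a laminectomy and, afterwards, saline, gentamycin and buprenorphine. At each time after SCI these cannot be told apart from the contusion. By the study, naive and dpi 42 tissue was collected equally long after the start of tamoxifen. Mice of dpi 2 and dpi 10 were thus younger and nearer to induction at collection. In comparisons of dpi 2 and dpi 10 with naive tissue, age and time since induction cannot be told apart from injury. Each group had 3 pools of tissue from 2 mice, and each pool gave 1 library of RNA bound to tagged ribosomes (OL) and 1 of all RNA (total), which makes 24 libraries.

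Wnt proteins are secreted, lipid-modified signals. In the canonical pathway a Wnt binds a frizzled receptor (Fzd) together with the co-receptor LRP5 or LRP6, which keeps beta-catenin from being degraded and lets it work with TCF and LEF factors at target genes. Secreted frizzled-related proteins (Sfrp, Frzb), Wif1, Dickkopf proteins (Dkk) and the deacylase Notum act outside the cell, while Axin2, Nkd1, Apcdd1, Rnf43 and Znrf3 are induced by or restrain the signal in the receiving cell. In the OL lineage, canonical Wnt signaling is known above all for its effect on the timing of differentiation and myelination.

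Libraries held 25840127 to 32987841 counts (median 29062636), so that 3 counts correspond to 0.0840 to 0.127 CPM (counts scaled to a common library size). The 8 OL markers summed to 96300 to 158000 CPM in OL libraries and to 19300 to 27900 CPM in total libraries, and none was at the floor of 3 counts in any group. In 4 of the 12 OL libraries astrocyte markers stood apart. In naive library 3, dpi 2 library 3 and dpi 42 libraries 1 and 2 the 7 astrocyte markers reached 132% to 178% of their level in the total library of the same pool, against 29.9% to 84.1% in the other 8. The 6 Schwann cell markers summed to 1.81 and 1.82 CPM in naive OL libraries 1 and 2, but reached 644 CPM in naive OL library 3 and 215 to 1550 CPM in the OL libraries after SCI. The 7 fibroblast and pericyte markers summed to 131 to 157 CPM in naive total libraries and to 543 to 988, 2230 to 2500 and 576 to 885 CPM on dpi 2, 10 and 42. Pool 2 of dpi 2 held 2414 (OL) and 2604 (total) counts on 4 Y-linked genes, against 0 to 13 in the other 22 libraries, although all mice are labelled female. The labels of 1 OL and 1 total library of dpi 42 conflict with each other, and their description was followed. A further total library of dpi 42 carries 1 in its title but is taken as pool 2 here, since the column headers give OL and total libraries of a pool a shared code. The dpi 42 pairs thus follow the headers and not the titles.

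Levels below are CPM scaled by TMM, and RPKM (CPM per kilobase of exon) where genes are compared with each other. Differences are log2 fold changes with their standard error, and q stands for the p of edgeR's quasi-likelihood test after Benjamini-Hochberg adjustment over all genes tested. OL enrichment, OL against total RNA of the same group, was called past 0.5 and changes past 1 in either direction, with q under 0.05. Differential OL enrichment is the change in OL enrichment from naive to SCI tissue, tested with OL and total RNA of each pool paired. Percentages in parentheses after a count give the share of all 17167 genes called in the same direction.

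In the naive OL translatome the feedback inhibitor Nkd1, which binds Dishevelled, had the highest level per length of all 47 genes, 36.5 ± 3.55 RPKM (SD, n = 3). It was followed by the ligand Wnt3 with 23.2 ± 1.49, the receptor Fzd9 with 18.3 ± 4.22, the co-receptor Lrp6 with 11.5 ± 0.573 and the receptor Fzd7 with 9.97 ± 0.371 RPKM. Nkd1 was above Wnt3 in each library, while Fzd9, at 22.2, 18.8 and 13.8 RPKM, overlapped the range of Wnt3 (22.1 to 24.9 RPKM) and stayed above Lrp6. The order in total RNA was different. There the antagonist Dkk3, a divergent Dickkopf protein, led with 46.7 ± 0.320 RPKM, followed by Sfrp5 with 12.1 ± 2.19, Sfrp1 with 9.95 ± 1.40 and Fzd1 with 7.50 ± 0.786 RPKM, and Nkd1 was sixth. Of the 47 genes, 23 passed 3 counts in all 12 OL libraries and 6 in none (Wnt1, Wnt3a, Wnt8a, Wnt9b, Dkk1 and Dkk4).

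**Figure D1:**
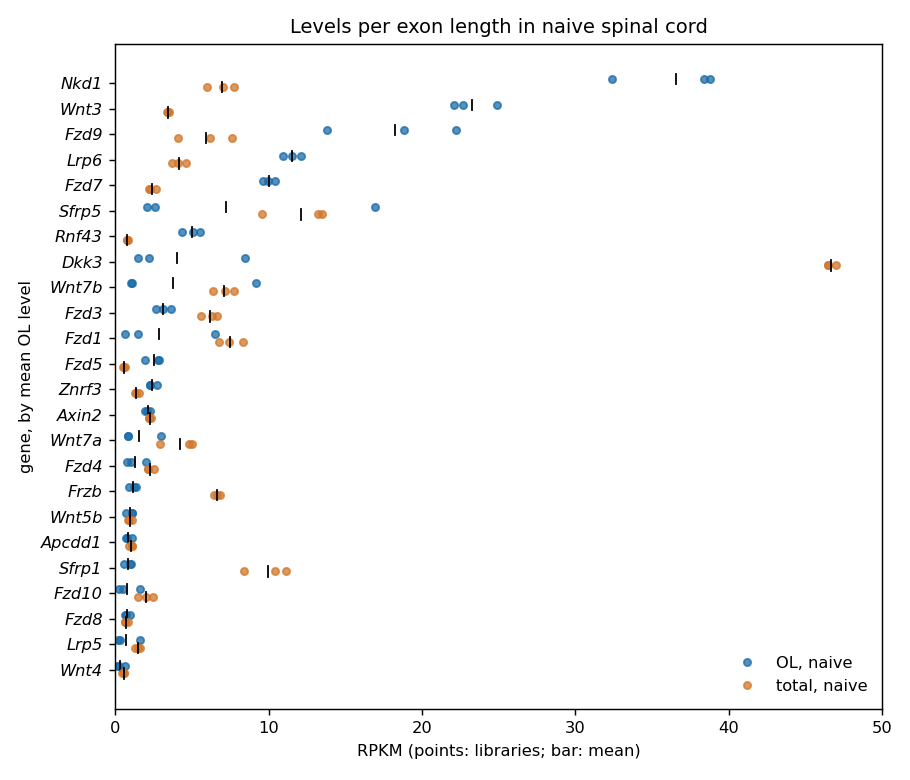
Levels of the 24 members with the highest mean in naive OL libraries, in RPKM on the x axis, with a point for each OL (blue) and total (orange) library and a bar at the mean of 3. Nkd1, Wnt3, Fzd9, Lrp6 and Fzd7 lie higher in OL than in total libraries, and Dkk3 and Sfrp1 lie higher in total libraries.

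Compared with total RNA of the same naive tissue, 8 of the 43 genes were OL enriched (21.7%) and 15 were lower in OL (28.6%). The median log2 difference of the 43 genes was -1.03, or -0.74 with genes at the counting floor placed at their bound, against -0.27 over all genes. The enriched genes were 1 ligand, 4 receptors and 3 feedback genes, and none was an antagonist. Wnt3, located on chromosome 11 at 103774150-103817957 (GRCm38), had 71.4 ± 4.57 CPM in OL and 10.6 ± 0.245 CPM in total RNA (2.76 ± 0.22, q = 6.0e-10). Of the feedback genes, Nkd1 (chromosome 8, 88521354-88594884) had 166 ± 16.2 against 31.6 ± 4.04 CPM (2.40 ± 0.15, q = 1.0e-11), and the ubiquitin ligase Rnf43, which removes frizzleds from the cell surface, had 32.7 ± 3.84 against 4.99 ± 0.281 CPM (2.71 ± 0.25, q = 5.1e-09). Its relative Znrf3 was closer to total RNA (0.80 ± 0.24, q = 0.0060) and lost the call with library sizes alone as the scaling (0.30, q = 0.29). Axin2, a widely used readout of canonical signaling, had overlapping levels in OL (11.5 ± 1.01 CPM) and in total RNA (12.2 ± 0.366 CPM).

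Among the receptors, Fzd5 (2.19 ± 0.31, q = 2.9e-06), Fzd7 (2.08 ± 0.14, q = 5.7e-11), Fzd9 (1.63 ± 0.22, q = 2.2e-06) and Lrp6 (1.48 ± 0.13, q = 1.6e-09) were enriched, with all 3 OL libraries above all 3 total libraries. Fzd3 was lower in OL (-0.98 ± 0.17, q = 3.9e-05). Calls of lower level also came for Fzd1 (-1.38, q = 0.044), Fzd2 (-1.68, q = 0.035), Fzd4 (-0.81, q = 0.032) and Fzd6 (-2.09, q = 0.046), but most single libraries were needed for these calls. Without naive OL library 1 the values were -0.75 (q = 0.25), -1.04 (q = 0.20), -0.53 (q = 0.23) and -1.45 (q = 0.20). Without naive OL library 2 they were -0.91 (q = 0.23), -1.26 (q = 0.17), -0.40 (q = 0.33) and -1.38 (q = 0.18). They also lost the call without total library 1 (Fzd1 -1.45, q = 0.062; Fzd2 -1.73, q = 0.054; Fzd6 -2.10, q = 0.075), total library 2 (Fzd1 -1.30, q = 0.093; Fzd2 -1.55, q = 0.081; Fzd4 -0.85, q = 0.050; Fzd6 -2.21, q = 0.061) or total library 3 (Fzd1 -1.39, q = 0.073; Fzd4 -0.73, q = 0.091; Fzd6 -1.96, q = 0.097). Without naive OL library 3, one of those with high astrocyte markers, the calls were kept and the values were lower, at -2.66 for Fzd1 (q = 9.8e-05), -2.92 for Fzd2 (q = 0.0018), -1.15 for Fzd4 (q = 0.0027) and -5.05 for Fzd6 (q = 6.9e-05).

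Of the 10 antagonists tested, 6 were lower in naive OL than in total RNA (28.6%). The values were -3.59 ± 0.37 for Sfrp1 (q = 2.8e-08), -3.53 ± 0.48 for Dkk3 (q = 1.8e-06), -2.52 ± 0.21 for Frzb (q = 9.1e-10), -4.13 ± 0.88 for Sfrp2 (q = 6.2e-04) and -2.46 ± 0.87 for Notum (q = 0.020). Dkk2 had no counts in naive OL, which puts it at least 3.05-fold lower, against a floor of 3 counts per library (q = 0.0060). The Notum call was lost without OL library 2 (-2.27, q = 0.075), OL library 3 (-2.06, q = 0.085) or total library 3 (-2.22, q = 0.056). Of the ligands, 4 were lower in OL: Wnt5a (-3.25 ± 0.74, q = 7.6e-04), Wnt9a (-2.64 ± 0.71, q = 0.0032), and Wnt10a (at least 11.6-fold, q = 0.0023) and Wnt16 (at least 1.31-fold, q = 0.043), which had no counts in naive OL. The call of Wnt16 was lost without any of the 3 OL libraries or without total library 2 or 3 (q from 0.079 to 0.10).

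**Figure D2:**
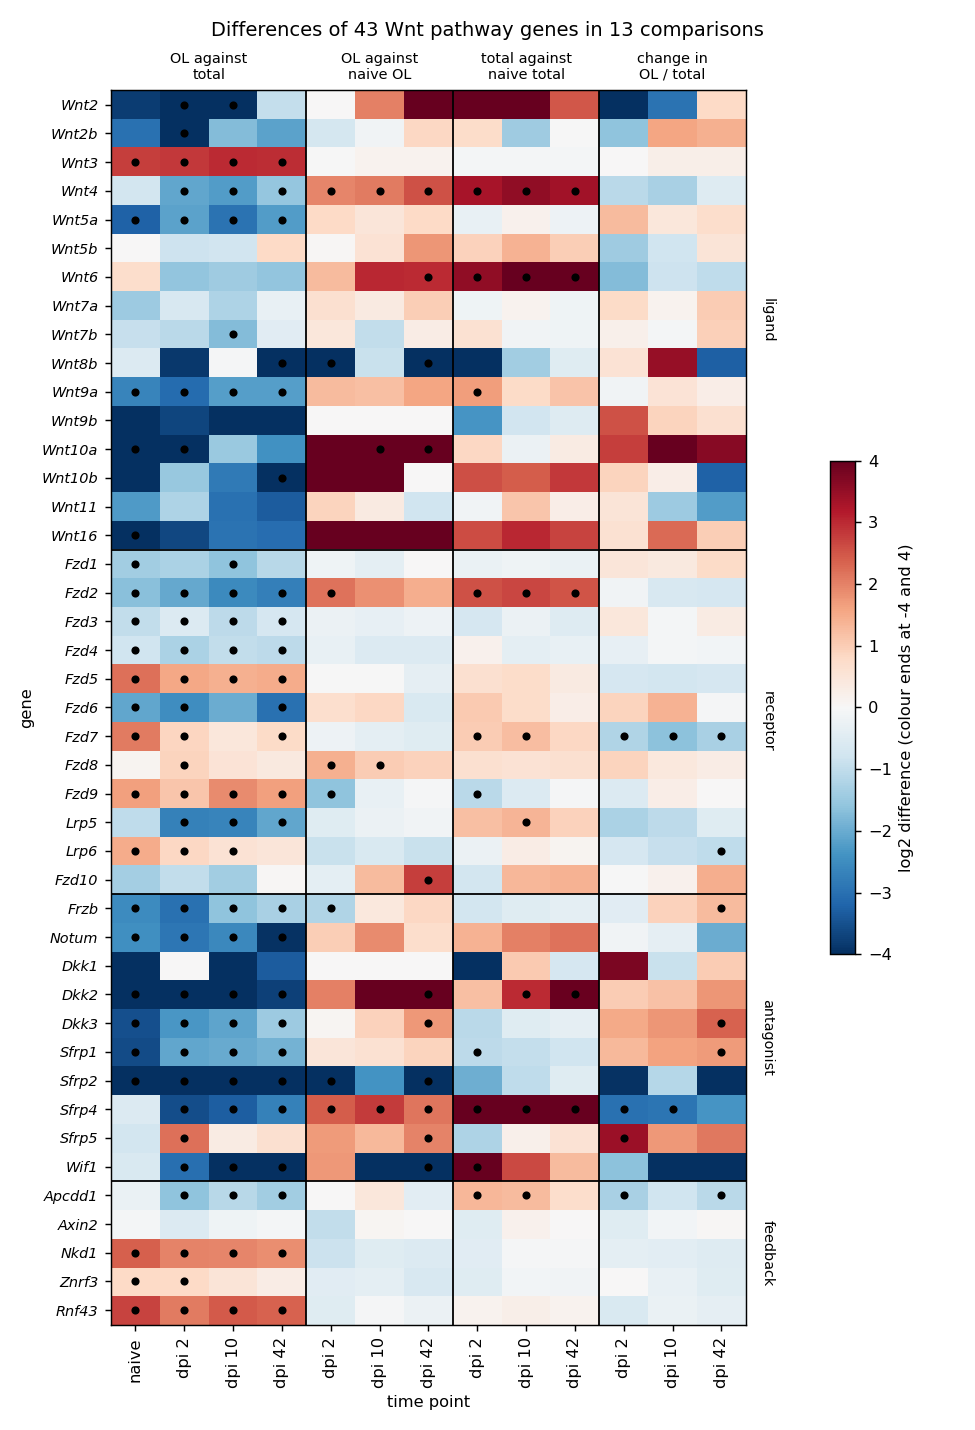
Log2 differences of the 43 genes tested (rows, grouped as ligands, receptors, antagonists and feedback genes) in 13 comparisons (columns), in red where higher and in blue where lower; a black dot marks a call, and colour ends at -4 and 4. Wnt3, Fzd5, Fzd9, Nkd1 and Rnf43 have a dot for higher OL than total RNA in all 4 groups, and Fzd7 has a dot for lower OL enrichment at all 3 times after SCI. Genes with few counts reach the ends of the scale without a dot.

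The same comparison was made after SCI. Wnt3, Fzd5, Fzd9, Nkd1 and Rnf43 were OL enriched in all 4 groups, and Wnt5a, Wnt9a, Fzd2, Fzd3, Fzd4, Frzb, Notum, Dkk2, Dkk3, Sfrp1 and Sfrp2 were lower in OL in all 4. On dpi 2, 10 genes were enriched (20.5%) and 20 lower (27.2%), on dpi 10 the counts were 6 (21.2%) and 19 (27.3%), and on dpi 42 they were 6 (21.1%) and 19 (27.0%). Wnt3 was the steadiest of the enriched genes in size, at 2.82, 2.97 and 2.95 on dpi 2, 10 and 42 (each SE 0.22). Its OL level was 64.3, 98.4 and 49.0 CPM on dpi 2, 91.7, 71.6 and 74.6 CPM on dpi 10 and 85.5, 70.5 and 78.1 CPM on dpi 42, which overlaps the naive libraries (67.9, 76.6 and 69.8 CPM) at each time. Nkd1 (1.99, 1.96 and 1.87), Rnf43 (2.09, 2.45 and 2.36) and Fzd5 (1.56, 1.43 and 1.48) were enriched on dpi 2, 10 and 42 as well.

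Several calls after SCI rested on single libraries, among them calls of Fzd3, Wnt5a, Fzd4 and Notum, which were lower in OL in all 4 groups. On dpi 2 the enrichment of Sfrp5 (2.19, q = 0.0094) was 1.12 (q = 0.16) without OL library 2, and that of Fzd8 (0.90, q = 0.015) was 0.73 (q = 0.067) without OL library 3 and 0.59 (q = 0.088) without total library 1. Lower calls of dpi 2 were lost for Fzd3 without total library 1 (-0.43, q = 0.060), for Wnt5a without OL library 1 (-1.96, q = 0.052) or 2 (-1.91, q = 0.051), for Fzd6 (-2.30, q = 0.059) and Wnt2b (-3.91, q = 0.050) without OL library 2, and for Wif1 without any library of the comparison (q from 0.058 to 0.097). On dpi 10 they were lost for Wnt7b without any library but OL library 2 (q from 0.067 to 0.15), for Fzd1 and Wnt2 without OL library 1 or 3 (q from 0.056 to 0.081 for Fzd1 and from 0.056 to 0.058 for Wnt2), for Fzd4 without OL library 1 (-0.69, q = 0.092) or total library 3 (-0.81, q = 0.060), and for Notum without OL library 1 (-2.20, q = 0.054). The enrichment of Lrp6 on dpi 2 (0.83, q = 8.6e-06) and dpi 10 (0.58, q = 4.7e-04) lay close to the threshold, and on dpi 42 it fell short of it (0.48, q = 0.0025). With library sizes alone, which moved the median of all genes by -0.57 on dpi 2 and dpi 10, Lrp6 stood at 0.25 (q = 0.062) and -0.00 (q = 1.0).

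After SCI the question was which of these genes changed in OLs. Against naive OL, dpi 2 had 4 higher genes (10.2%) and 4 lower ones (6.85%) in the OL translatome. The counts were 4 higher (6.82%) and 0 lower (1.26%) on dpi 10, and 8 higher (8.54%) and 3 lower (4.08%) on dpi 42. Without naive OL library 3 the members called were 15 on dpi 2 and 8 on dpi 10, and without dpi 42 OL library 1 they were 5 on dpi 42. For the 0 of dpi 10, edgeR gave 5 lower genes at an unadjusted p under 0.05 and DESeq2 called 2. The median change of the 43 genes was 0.00, 0.37 and 0.13 on dpi 2, 10 and 42, or 0.00, 0.07 and 0.02 with genes at the floor placed at their bound, against 0.00 over all genes. In a tissue with several cell types, fewer cells of a type and less RNA per cell cannot be told apart in these libraries.

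The ligand Wnt4 was the only ligand that rose in OL at all 3 times. It had 0.504, 1.02 and 2.52 CPM in the naive OL libraries, 4.72, 8.22 and 2.95 CPM on dpi 2, 4.50, 7.08 and 5.56 CPM on dpi 10, and 9.33, 7.02 and 7.51 CPM on dpi 42. All libraries after SCI lay above all naive ones, and naive library 3 was the highest of its group. The change was 1.96 ± 0.49 (q = 0.0032) on dpi 2, 2.07 ± 0.49 (q = 0.0053) on dpi 10 and 2.55 ± 0.50 (q = 4.6e-04) on dpi 42, and no single library was needed for these calls. With only the groups compared in the fit, Wnt4 was called on dpi 42 alone, and stood at 2.01 (q = 0.075) on dpi 2 and 2.09 (q = 0.055) on dpi 10. Wnt4 was lower in OL than in total RNA at these 3 times (-2.07, -2.23 and -1.55).

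The other ligand calls rested on few counts. Wnt6 had 0, 0 and 1.95 CPM in naive OL, 0.378, 4.33 and 0.115 CPM on dpi 2, 7.46, 3.84 and 4.91 CPM on dpi 10 and 1.96, 6.35 and 7.36 CPM on dpi 42. It was called on dpi 42 alone (2.97 ± 1.14, q = 0.050, just under the threshold), and the call was lost without naive library 1 or 2 (2.35 each, q = 0.15), dpi 42 library 2 (2.77, q = 0.097) or dpi 42 library 3 (2.56, q = 0.11). Wnt10a had no counts in naive OL. It was at 0.227, 0 and 0 CPM on dpi 2, at 0.117, 0.685 and 0.457 CPM on dpi 10 (at least 3.41-fold higher, q = 0.039) and at 0.979, 0 and 0 CPM on dpi 42 (at least 2.66-fold higher, q = 0.032). The dpi 42 call thus came from library 1, without which the difference was 0.00, and was lost without any of the 3 naive libraries as well (q from 0.070 to 0.084). The dpi 10 call of Wnt10a was lost without any naive library or without dpi 10 library 2 or 3 (q from 0.071 to 0.10). Wnt8b had 0, 0 and 1.99 CPM in naive OL, 0 CPM in all OL libraries of dpi 2 and dpi 42, and 0.155, 0.799 and 0.114 CPM on dpi 10. Its calls of lower level on dpi 2 (at least 5.70-fold, q = 0.029) and dpi 42 (at least 5.94-fold, q = 0.032) came from naive library 3, without which the difference was 0.00, and were lost without any dpi 2 (q from 0.064 to 0.067) or dpi 42 library (q from 0.063 to 0.083).

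Among the receptors, Fzd9 fell on dpi 2. It had 50.9, 43.1 and 31.7 CPM in naive OL and 18.03, 11.1 and 11.9 CPM on dpi 2, so that the groups were well apart. On dpi 10 it was at 33.6, 33.9 and 33.9 CPM and on dpi 42 at 41.3, 38.8 and 41.9 CPM, within the naive range. The change was -1.61 ± 0.22 (q = 7.6e-06) on dpi 2. Directly against dpi 2, a comparison chosen after the values were seen, Fzd9 was higher by 1.30 ± 0.22 (q = 2.1e-04) on dpi 10 and by 1.57 ± 0.22 (q = 4.8e-05) on dpi 42.

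The co-receptor Lrp6 (chromosome 6, 134446476-134566965) was lower in OL after SCI at each time. It had 158, 165 and 150 CPM in naive OL, 90.4, 93.3 and 70.5 CPM on dpi 2, 104, 106 and 102 CPM on dpi 10, and 72.7, 81.9 and 101 CPM on dpi 42, and no library after SCI reached the naive range. The difference was -0.89 ± 0.12 (q = 7.0e-06), -0.60 ± 0.12 (q = 0.0015) and -0.89 ± 0.12 (q = 1.5e-05), short of the fold threshold each time although q passed. Fzd8 went the other way. It had 3.78, 5.63 and 4.21 CPM in naive OL, 9.64, 12.8 and 14.2 CPM on dpi 2, 11.8, 7.95 and 7.69 CPM on dpi 10, and 8.84, 9.67 and 7.16 CPM on dpi 42, all above the naive libraries. Fzd8 rose on dpi 2 (1.43 ± 0.31, q = 7.9e-04) and dpi 10 (1.01 ± 0.30, q = 0.024) and was at 0.91 ± 0.30 (q = 0.024) on dpi 42. Its dpi 10 call was lost without naive library 1 (0.90, q = 0.10), naive library 3 (0.96, q = 0.060) or dpi 10 library 1 (0.79, q = 0.11).

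Fzd2 rose in OL on dpi 2 (2.17 ± 0.66, q = 0.013), from 0.126, 0.423 and 1.61 to 2.00, 6.20 and 1.64 CPM. It was at 2.33, 4.45 and 0.952 CPM on dpi 10 and at 1.99, 3.02 and 1.02 CPM on dpi 42, which overlap the naive libraries. The dpi 2 call was lost without naive library 1 (1.61, q = 0.066), naive library 2 (1.83, q = 0.065) or dpi 2 library 2 (1.27, q = 0.14). Fzd10 was called on dpi 42 (2.77 ± 0.84, q = 0.015), with 0.798, 1.57 and 5.20 CPM in naive OL, 1.40, 0 and 4.44 CPM on dpi 2, 3.11, 10.0 and 5.37 CPM on dpi 10, and 31.7, 15.6 and 4.73 CPM on dpi 42. The groups overlapped, dpi 42 libraries 1 and 2 were the high ones, and these are libraries with high astrocyte markers. The call of Fzd10 was lost without naive library 1 (2.28, q = 0.073) or 2 (2.45, q = 0.068) or dpi 42 library 1 (1.95, q = 0.10). Fzd7 was not called, with 43.6, 45.1 and 46.9 CPM in naive OL, 37.5, 40.9 and 40.3 CPM on dpi 2, 38.7, 30.9 and 34.6 CPM on dpi 10, and 31.2, 29.3 and 36.2 CPM on dpi 42, but it was below all naive libraries each time and reached q = 0.0083 on dpi 42 (-0.49 ± 0.14).

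**Figure D3:**
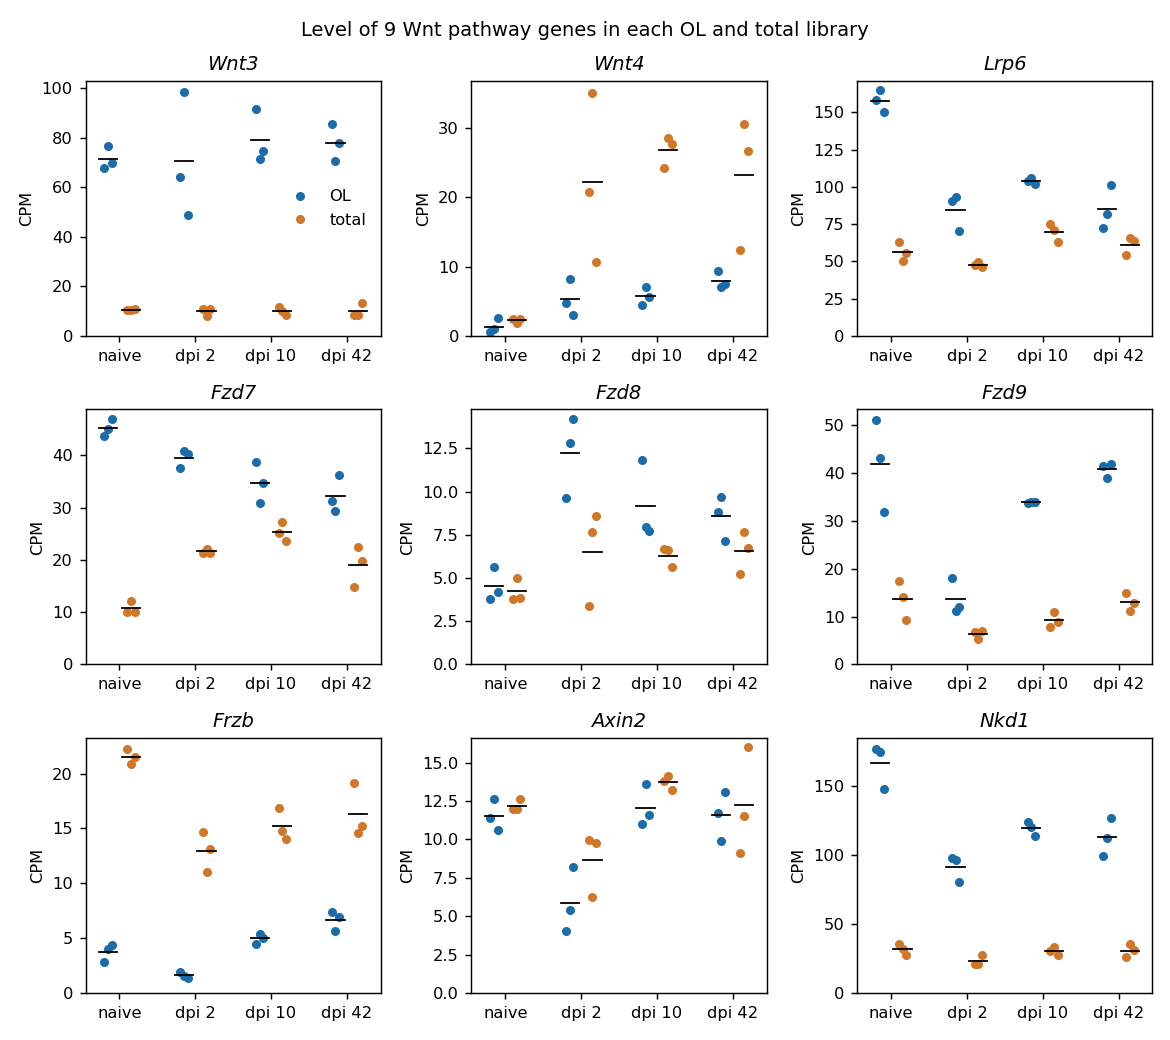
CPM of 9 members in each of 3 OL (blue) and 3 total (orange) libraries per group, with a black line at the group mean. In OL libraries Lrp6 and Nkd1 are lower after SCI at each time, Fzd9, Frzb and Axin2 are lower on dpi 2 alone, Fzd8 and Wnt4 are higher, and Wnt3 overlaps the naive libraries; in total libraries Fzd7 and Wnt4 are higher after SCI.

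The feedback genes were chosen for description here after their values were seen, since none passed the fold threshold. Nkd1 had 177, 175 and 148 CPM in naive OL, 97.6, 96.0 and 80.6 CPM on dpi 2, 124, 120 and 114 CPM on dpi 10 and 99.1, 112 and 127 CPM on dpi 42. All 9 libraries after SCI were below the 3 naive ones, by -0.86 ± 0.14 (q = 4.0e-05), -0.48 ± 0.14 (q = 0.018) and -0.56 ± 0.14 (q = 0.0033). Axin2 was at 11.4, 12.6 and 10.6 CPM in naive OL and at 4.01, 5.39 and 8.19 CPM on dpi 2 (-0.97 ± 0.25, q = 0.0034). It overlapped the naive range on dpi 10 (10.99, 13.6 and 11.6 CPM) and dpi 42 (11.7, 9.89 and 13.1 CPM), higher than on dpi 2 by 1.04 ± 0.25 (q = 0.0039) and 0.98 ± 0.25 (q = 0.0084). Znrf3 was lower on dpi 42 (-0.65 ± 0.23, q = 0.036), while Rnf43, at 19.5 to 37.1 CPM in the libraries after SCI against 28.6 to 36.2 CPM in naive OL, passed q at no time.

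These genes were also compared without the 4 OL libraries with high astrocyte markers. Without those libraries, which leaves 1 OL library on dpi 42 that is assumed to vary like the other groups, the dpi 2 difference in OL was -1.75 for Fzd9 (q = 1.8e-05), -0.88 for Lrp6 (q = 4.6e-06), -0.92 for Nkd1 (q = 5.3e-05) and -1.42 for Axin2 (q = 2.6e-04). On dpi 42 Lrp6 was at -0.69 (q = 0.0018), and Nkd1 at -0.49 no longer passed (q = 0.067).

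Of the 10 antagonists, 1 was higher (10.2%) and 2 were lower (6.85%) in OL on dpi 2, 1 was higher (6.82%) on dpi 10, and 4 were higher (8.54%) and 2 lower (4.08%) on dpi 42. Frzb, a secreted frizzled-related protein, fell on dpi 2. It had 2.86, 3.98 and 4.36 CPM in naive OL, 1.89, 1.58 and 1.38 CPM on dpi 2 (-1.21 ± 0.21, q = 9.5e-05), 4.47, 5.40 and 5.02 CPM on dpi 10, and 7.38, 5.67 and 6.89 CPM on dpi 42 (0.83 ± 0.20, q = 0.0029). The dpi 2 libraries lay below and the dpi 10 and dpi 42 libraries above all naive ones, and against dpi 2 Frzb was higher by 1.62 ± 0.21 (q = 9.2e-06) and 2.04 ± 0.21 (q = 1.1e-06). With only the 6 libraries compared in the fit, the dpi 2 change was -1.14 (q = 0.089).

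The promoter of Frzb is shown because Frzb is, of the members whose OL change was called, the one whose window held the core of the TCF and LEF binding motif, CTTTGA (or its reverse complement TCAAAG). The windows, from RefSeq on GRCm38.p6, run from 250 bases before to 50 bases after the start. They were at hand for 30 of the 47 genes, and 5 of these (16.7%) held the core on either strand, against 18.2% of the 27025 genes with a window, so the members are near the share of all genes. The stretches around the core are written along the strand of the gene, with the core in capitals, for Frzb (chr2:80447474-80447503, minus strand) and for 2 further members, Wnt5b (chr6:119449440-119449469, minus strand) and Fzd1 (chr5:4758441-4758466, minus strand):
Frzb: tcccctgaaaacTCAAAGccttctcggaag
Wnt5b: gagtaagtctctCTTTGAtctgctccctgt
Fzd1: cgcagcacTCAAAGtagcagtctgtg
The core lies at -95, -71 and -242 relative to the start of Frzb, Wnt5b and Fzd1. The windows of Axin2, Nkd1, Fzd7, Fzd9, Wnt3 and Wnt4 did not hold these letters.

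Sfrp4 rose in OL at all 3 times, by 2.42 ± 0.71 (q = 0.0093), 2.79 ± 0.70 (q = 0.0078) and 2.13 ± 0.71 (q = 0.024). It had 0.462, 0.677 and 0.880 CPM in naive OL, 3.02, 6.72 and 1.19 CPM on dpi 2, 3.38, 5.59 and 5.18 CPM on dpi 10 and 3.04, 1.53 and 4.34 CPM on dpi 42, and no library after SCI overlapped the naive ones. The dpi 2 call was lost without dpi 2 library 2 (1.58, q = 0.10), and that of dpi 42 without naive library 1 (1.87, q = 0.098) or 2 (2.08, q = 0.074) or dpi 42 library 1 (2.08, q = 0.057) or 3 (1.68, q = 0.099). Sfrp2 was at 0.672, 0 and 0.382 CPM in naive OL and had no counts on dpi 2 (at least 3.01-fold lower, q = 0.0034) or dpi 42 (at least 3.16-fold lower, q = 0.0039). It was at 0, 0.152 and 0.0381 CPM on dpi 10. Since naive library 2 also had no counts of Sfrp2, the groups overlapped.

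Sfrp5 rose in OL on dpi 42 (1.98 ± 0.67, q = 0.027). It had 4.92, 3.98 and 32.1 CPM in naive OL, 31.2, 89.1 and 12.0 CPM on dpi 2, 44.3, 35.5 and 20.7 CPM on dpi 10 and 56.9, 52.0 and 52.9 CPM on dpi 42. Naive library 3 was several times above the other naive libraries, and the Schwann cell markers were too. The 6 markers summed to 1.81, 1.82 and 644 CPM in the naive OL libraries and to 1240, 1220 and 1420 CPM on dpi 42. Each of the 6 passed 3 counts in at least 1 naive OL library. Of these markers 1, 2 and 2 rose in OL on dpi 2, 10 and 42, and their part in the level of Sfrp5 was not tested. The call of Sfrp5 was lost without naive library 1 (1.52, q = 0.13) or 2 (1.49, q = 0.12) or dpi 42 library 1 (1.90, q = 0.063) or 2 (1.95, q = 0.052).

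Dkk3 rose in OL on dpi 42 (1.73 ± 0.45, q = 0.0052). It had 7.40, 4.99 and 28.3 CPM in naive OL, 8.16, 15.7 and 19.7 CPM on dpi 2, 19.96, 34.4 and 22.6 CPM on dpi 10 and 53.0, 61.3 and 21.4 CPM on dpi 42. The groups overlapped, and the highest library of naive, dpi 2 and dpi 42 OL was each time one with high astrocyte markers. With only the groups compared in the fit the dpi 42 call was lost (1.76, q = 0.12). Without these 4 libraries Dkk3 was called on dpi 42 (1.77, q = 2.2e-04) and also on dpi 10 (2.05, q = 2.3e-06), where it was not called with all libraries (0.92 ± 0.45, q = 0.17). Dkk2 had no counts in naive OL, 0, 0.0405 and 0 CPM on dpi 2, 0, 0.0380 and 0.266 CPM on dpi 10 and 0, 1.05 and 0.235 CPM on dpi 42 (at least 3.48-fold higher, q = 0.0094). Its call on dpi 42 was lost without library 2 of that group (4.84, q = 0.076). Wif1 had 0, 0 and 0.612 CPM in naive OL, 0.567, 0.689 and 0.842 CPM on dpi 2 and no counts on dpi 10 or dpi 42. Its lower call on dpi 42 (at least 1.83-fold, q = 0.043) came from naive library 3, without which the difference was 0.00, and was lost without any dpi 42 library (q from 0.077 to 0.10). Against dpi 2, Wif1 was at least 6.06-fold lower on dpi 10 (q = 0.012) and at least 6.28-fold lower on dpi 42 (q = 0.015).

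How OL libraries varied in astrocyte markers was visible in part of the genes. Wnt7b was at 73.2% to 144% of the total library in the 4 OL libraries with high astrocyte markers and at 14.4% to 47.3% in the other 8, and Fzd1 at 56.2% to 87.8% against 9.31% to 41.7%. Fzd10 was at 106% to 245% against 0% to 56.2%, and Lrp5 at 23.7% to 103% against 7.81% to 23.7%. Nkd1 (291% to 540% against 360% to 545%), Lrp6 (124% to 269% against 138% to 327%) and Fzd9 (169% to 345% against 212% to 434%) overlapped widely between these libraries. The 7 astrocyte markers, none of them absent in any group, summed to 2230 to 12200 CPM in naive OL, 2530 to 9670 on dpi 2, 2850 to 7620 on dpi 10 and 2850 to 14700 CPM on dpi 42. Their part in the OL levels of Wnt7b, Fzd1, Fzd10 and Lrp5 was not tested. Without the 4 libraries, OL change was called for 10 higher and 4 lower genes on dpi 2 (10.9% and 9.91% of the 17122 genes tested in that fit). It was called for 12 higher genes on dpi 10 (10.3%) and for 5 higher and 1 lower on dpi 42 (7.61% and 3.49%). Of these, 7, 3 and 5 were calls made with all libraries. Fzd6, which had 0.210, 0.0423 and 3.10 CPM in naive OL and 0.784 to 2.47 CPM in all OL libraries after SCI but dpi 42 library 3 (0 CPM), was then higher by 3.57 (q = 2.3e-05) on dpi 2 and 3.94 (q = 9.0e-06) on dpi 10.

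**Figure D4:**
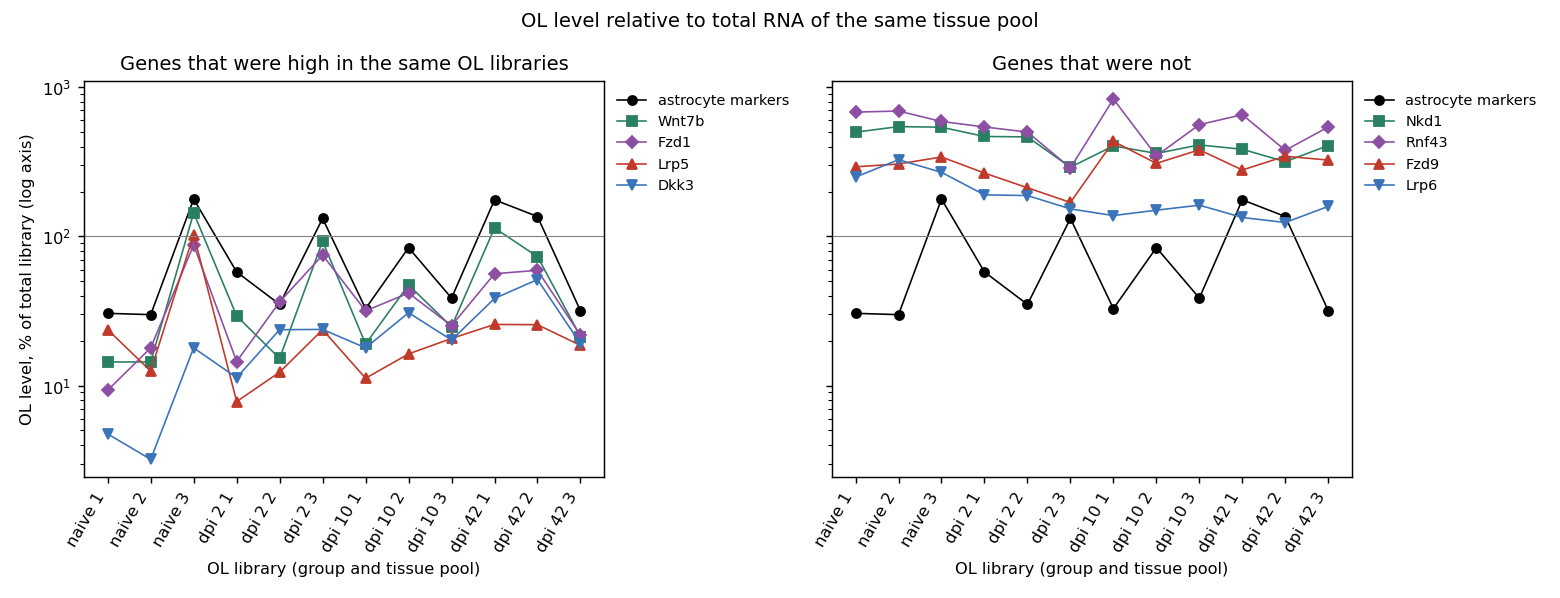
OL level as a percent of the total library of the same tissue pool, on a log axis, for the 12 OL libraries in order of group and pool. On the left, Wnt7b, Fzd1, Lrp5 and Dkk3 are drawn with the summed astrocyte markers (black), which pass 100% in naive 3, dpi 2 3, dpi 42 1 and dpi 42 2; on the right, Nkd1, Rnf43, Fzd9 and Lrp6 are drawn with the same markers, and all 4 stay above 100% in each library.

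In total RNA, the comparison with naive tissue asks what changed in the injured segment as a whole. There were 8 higher (10.0%) and 2 lower genes (6.33%) on dpi 2, 8 higher (9.20%) and 0 lower (3.07%) on dpi 10, and 5 higher (6.66%) and 0 lower (0.798%) on dpi 42. For each of these counts of 0, edgeR gave 3 lower genes at an unadjusted p under 0.05 and DESeq2 called 0. The median change of the 43 genes was 0.17, 0.30 and 0.26 against -0.10, -0.10 and -0.08 over all genes, and with genes at their bound it was 0.47 on dpi 2 and the same at the other times. Sfrp4, Wnt4, Wnt6 and Fzd2 rose at all 3 times.

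On dpi 2 and dpi 10 Sfrp4 had the largest change of these. It was at 1.44, 1.26 and 0.285 CPM in naive total RNA, 66.6, 54.1 and 7.59 CPM on dpi 2, 49.7, 48.4 and 42.2 CPM on dpi 10, and 19.7, 19.3 and 18.6 CPM on dpi 42. The groups were apart at each time, and dpi 2 library 3 was far below the other libraries of its group. The change was 5.42 ± 0.72 (q = 4.3e-06), 5.55 ± 0.72 (q = 5.2e-06) and 4.27 ± 0.69 (q = 1.2e-04). Wnt4 rose from 2.46, 1.93 and 2.41 CPM to 20.8, 35.0 and 10.7 CPM on dpi 2 (3.29 ± 0.49, q = 1.8e-05), 24.2, 28.5 and 27.6 CPM on dpi 10 (3.56 ± 0.50, q = 1.2e-05) and 12.4, 30.6 and 26.7 CPM on dpi 42 (3.36 ± 0.49, q = 4.3e-05).

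Wnt6 was at 0.295, 0.355 and 0.570 CPM in naive total RNA, 4.34, 9.09 and 1.06 CPM on dpi 2, 14.9, 15.2 and 13.1 CPM on dpi 10, and 8.12, 17.3 and 21.03 CPM on dpi 42. Its change was 3.55 ± 1.17 (q = 0.021), 5.13 ± 1.23 (q = 0.0027) and 5.24 ± 1.24 (q = 0.0038). The dpi 2 call of Wnt6 was lost without naive library 1 (3.37, q = 0.074) or 2 (3.46, q = 0.070) or dpi 2 library 2 (2.72, q = 0.10). Fzd2 went from 2.20, 2.74 and 2.09 CPM to 13.1, 17.6 and 10.2 CPM on dpi 2 (2.54 ± 0.63, q = 0.0028), 15.8, 13.2 and 16.1 CPM on dpi 10 (2.68 ± 0.63, q = 0.0023) and 9.50, 14.1 and 16.9 CPM on dpi 42 (2.52 ± 0.63, q = 0.0056).

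Markers of fibroblasts and pericytes and of myeloid cells also rose after SCI, and those of endothelial and Schwann cells did so in part. Of the 7 fibroblast and pericyte markers, 6, 6 and 5 rose in total RNA on dpi 2, 10 and 42, and 6, 5 and 6 rose in OL. Their sum in OL went from 51.3 to 95.6 CPM in naive libraries, where Lum was at the floor, to 210 to 286, 540 to 615 and 223 to 283 CPM. Against total RNA, 1 of the 7 markers was itself OL enriched in naive tissue and 5 were lower. On dpi 2, 10 and 42, 0 were enriched and 6, 7 and 5 were lower. Like Sfrp4, Wnt4, Wnt6, Wnt9a and Fzd2, the summed markers were lowest in library 3 of the dpi 2 total libraries (543 CPM, against 780 and 988 CPM). In OL after SCI, Sfrp4 was at 4.54% to 23.4% and Wnt4 at 18.6% to 75.2% of the total library of the same pool, and the fibroblast and pericyte markers at 22.9% to 42.8%. Of the 9 myeloid markers, none at the floor in any group, 8 rose in total RNA at each time and 7, 8 and 8 rose in OL on dpi 2, 10 and 42. Their sum went from 207 to 250 CPM in naive total RNA to 1320 to 1550, 3520 to 4770 and 2020 to 3050 CPM. The myeloid sum, too, was lowest in library 3 of the dpi 2 total libraries (1320 CPM, against 1430 and 1550 CPM). In OL it went from 18.5 to 25.2 CPM in naive libraries to 78.0 to 95.6, 231 to 262 and 147 to 243 CPM. Of the 6 endothelial markers, 3, 1 and 0 rose in total RNA and 4, 3 and 3 in OL. Their sum was 108 to 134, 168 to 274, 130 to 179 and 141 to 176 CPM in total RNA of naive, dpi 2, dpi 10 and dpi 42 tissue. In OL it was 5.71 to 6.04 (with Tek at the floor), 12.0 to 18.4, 8.85 to 19.1 and 8.21 to 18.8 CPM. Unlike the genes above, the endothelial sum was highest in library 3 of the dpi 2 total libraries (274 CPM). The Schwann cell markers summed to 2.00 to 178 CPM in naive total RNA. On dpi 2, 10 and 42 their sum was 61.1 to 262, 185 to 377 and 279 to 680 CPM. The part of these cells in the OL and total levels of Sfrp4, Wnt4, Wnt6, Wnt9a and Fzd2 was not tested.

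**Figure D5:**
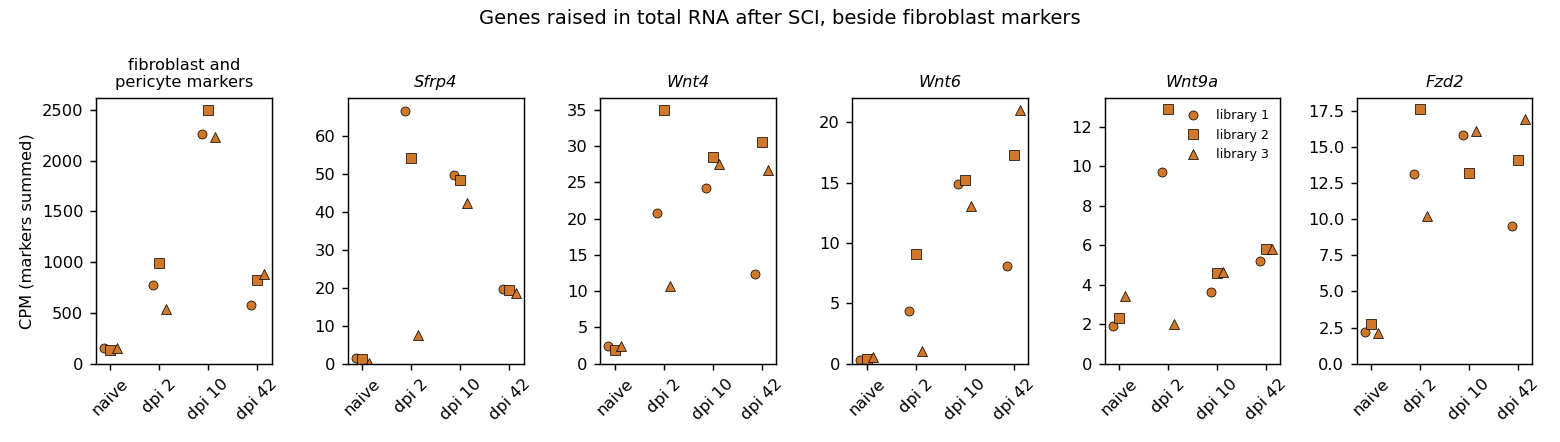
CPM in the 3 total libraries of each group for the 7 summed fibroblast and pericyte markers and for Sfrp4, Wnt4, Wnt6, Wnt9a and Fzd2; each library keeps its symbol over the panels. In each panel library 3 (triangle) is the lowest of the dpi 2 libraries, and Sfrp4 is at 18.6 to 19.7 CPM on dpi 42. The summed myeloid markers, not drawn, were lowest in the same library of dpi 2.

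The remaining calls in total RNA were fewer. Fzd7 rose on dpi 2 (1.01 ± 0.14, q = 6.7e-06) and dpi 10 (1.24 ± 0.14, q = 8.5e-07), from 10.1, 12.1 and 9.98 CPM to 21.3, 22.1 and 21.4 CPM and 25.1, 27.2 and 23.6 CPM, and was at 14.9, 22.5 and 19.7 CPM on dpi 42 (0.83 ± 0.14, q = 1.8e-04). The groups were apart at each time. On dpi 2 Fzd7 fell just under the fold threshold without naive library 1 (0.97), naive library 3 (0.96) or dpi 2 library 2 (0.99), with q still under the limit. Apcdd1, a membrane-bound inhibitor, rose from 13.8, 13.8 and 11.8 CPM to 26.7, 31.3 and 40.3 CPM on dpi 2 (1.32 ± 0.22, q = 4.9e-05) and 36.3, 32.6 and 25.4 CPM on dpi 10 (1.26 ± 0.22, q = 1.1e-04), and was at 19.3, 19.9 and 24.9 CPM on dpi 42 (0.70 ± 0.21, q = 0.021).

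Wif1 rose on dpi 2 (4.15 ± 1.26, q = 0.015), from 0.164, 0 and 0.792 CPM to 5.71, 7.15 and 4.32 CPM, and was at 1.85 to 2.14 CPM on dpi 10 and 0.569 to 1.17 CPM on dpi 42. Without naive library 1 the dpi 2 call was lost (3.84, q = 0.066). Dkk2 rose on dpi 10 (2.98 ± 1.08, q = 0.042) and dpi 42 (3.94 ± 1.12, q = 0.016), from 0.197, 0.548 and 0.380 CPM to 3.92, 3.20 and 1.86 CPM and 4.53, 6.50 and 6.38 CPM. The dpi 10 call of Dkk2 was lost without any of the 6 libraries (q from 0.052 to 0.14) and the dpi 42 call without naive library 1 (3.63, q = 0.073) or 3 (3.94, q = 0.061). Wnt9a on dpi 2 (1.68 ± 0.65, q = 0.046) kept the call only when dpi 2 library 3 was the library left out, and otherwise was at 1.20 to 1.96 (q from 0.062 to 0.23). Lrp5 on dpi 10 (1.37 ± 0.52, q = 0.047) lost it without any of the 6 libraries (1.29 to 1.44, q from 0.074 to 0.13). The groups were nonetheless apart for Lrp5, at 12.8, 14.2 and 15.3 CPM in naive tissue and 33.8, 40.5 and 35.4 CPM on dpi 10. The call was kept in the 7 other alternatives, among them the fit of only the groups compared. The main fit took the spread of a gene from all 8 groups, and naive OL libraries of Lrp5 were at 1.78 to 15.8 CPM.

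Fzd9 and Sfrp1 were the only genes called lower in total RNA, on dpi 2. Genes without a call could also be lower. Total libraries of Sfrp2 were at 6.59, 5.80 and 6.24 CPM in naive tissue and 2.18, 1.56 and 1.03 CPM on dpi 2. Those of Dkk3 were at 156, 156 and 158 CPM and 72.0, 66.0 and 83.1 CPM. Fzd9 went from 17.4, 14.1 and 9.29 CPM to 6.77, 5.26 and 7.04 CPM (-1.09 ± 0.23, q = 5.7e-04), and was at 7.74 to 10.99 CPM on dpi 10 and 11.2 to 14.8 CPM on dpi 42. Without naive library 1 (-0.88, q = 0.0065) or dpi 2 library 2 (-0.97, q = 0.0060) its change was short of the fold threshold. Sfrp1 went from 36.6, 48.3 and 45.6 CPM to 23.4, 19.4 and 20.3 CPM (-1.05 ± 0.33, q = 0.015), and stayed at 24.1, 23.99 and 18.8 CPM on dpi 10 and at 26.4, 24.3 and 24.6 CPM on dpi 42. The groups did not overlap, but the Sfrp1 call was lost without naive library 2 (-0.97, q = 0.053) or dpi 2 library 2 (-0.99, q = 0.058). Total levels of Wnt3 (8.14 to 13.3 CPM over all 12 libraries) and Lrp6 (46.0 to 75.2 CPM) did not pass q at any time.

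Differential OL enrichment asks whether OL and total RNA changed by unequal amounts. It was called for 1 gene up (2.95%) and 3 down (2.52%) on dpi 2, 0 up (1.39%) and 2 down (1.32%) on dpi 10, and 3 up (1.44%) and 3 down (1.22%) on dpi 42. For the 0 of dpi 10, edgeR gave 5 higher genes at an unadjusted p under 0.05 and DESeq2 called 3. Fzd7 was the only member called at all 3 times, with -1.21 ± 0.21 (q = 0.0021), -1.63 ± 0.21 (q = 6.6e-04) and -1.30 ± 0.21 (q = 0.0029), and it kept these calls without any single pool. Its OL level was 431%, 374% and 470% of the total library in the naive pools, against 176% to 188% on dpi 2, 114% to 154% on dpi 10 and 131% to 210% on dpi 42. Total RNA of Fzd7 rose on dpi 2 and 10, while its OL level was below the naive libraries at each time. Lrp6 was at -0.67 ± 0.15 (q = 0.0096), -0.91 ± 0.15 (q = 0.0030) and -1.02 ± 0.15 (q = 0.0020), the last of which was called. That call fell short of the threshold without naive pool 2 (-0.91, q = 0.014), dpi 42 pool 1 (-0.99, q = 0.0061) or dpi 42 pool 2 (-0.94, q = 0.012).

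Sfrp4 was lower in differential OL enrichment on dpi 2 (-2.99 ± 0.74, q = 0.017) and dpi 10 (-2.92 ± 0.72, q = 0.029). The dpi 2 call was lost without naive pool 3 (-2.17, q = 0.056) or dpi 2 pool 1 (-2.45, q = 0.060), and the dpi 10 call without any pool but naive pool 1 (q from 0.064 to 0.096). Apcdd1 had 8.78, 9.81 and 13.8 CPM in naive OL, 8.77, 13.98 and 9.68 CPM on dpi 2, 15.96, 15.9 and 12.1 CPM on dpi 10 and 8.005, 9.30 and 7.12 CPM on dpi 42, so that its OL libraries overlapped the naive ones on dpi 2 and dpi 42 while total RNA was higher. It was lower in enrichment on dpi 2 (-1.30 ± 0.30, q = 0.012) and dpi 42 (-1.09 ± 0.30, q = 0.047). The dpi 2 call of Apcdd1 was lost without the 4 libraries high in astrocyte markers (-0.75, q = 0.074), and the dpi 42 call without any of the 6 pools (q from 0.063 to 0.13).

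The antagonists Frzb, Dkk3 and Sfrp1 were higher in differential OL enrichment on dpi 42, although all 3 stayed below total RNA. Frzb was at 1.25 ± 0.29 (q = 0.021), Dkk3 at 2.35 ± 0.57 (q = 0.025) and Sfrp1 at 1.71 ± 0.49 (q = 0.050, just under the threshold). In naive pools Frzb in OL was 12.9%, 19.1% and 20.3% of total RNA, and on dpi 42 it was 38.6%, 39.0% and 45.4%. Sfrp1 had 4.08, 4.44 and 2.33 CPM in naive OL, 2.57, 9.60 and 2.83 CPM on dpi 2, 5.94, 4.41 and 6.20 CPM on dpi 10 and 6.99, 6.12 and 7.004 CPM on dpi 42, the last above all naive libraries. Dkk3 in total RNA was at 156, 156 and 158 CPM in naive tissue, 72.0, 66.0 and 83.1 CPM on dpi 2, 111 to 112 CPM on dpi 10 and 112 to 138 CPM on dpi 42, and its changes there did not pass q. All total libraries after SCI were nonetheless below the naive ones for Dkk3. The fit took the spread of a gene from all 8 groups, and OL libraries of Dkk3 were at 4.99 to 61.3 CPM. Frzb in total RNA was at 20.9 to 22.2 CPM in naive tissue and 11.01 to 14.7 CPM on dpi 2 (-0.73 ± 0.19, q = 0.0046). The calls were lost for Sfrp1 without any of the 6 pools (q from 0.078 to 0.12), for Frzb without naive pool 1 (1.05, q = 0.11), naive pool 2 (1.33, q = 0.067), dpi 42 pool 2 (1.29, q = 0.057) or dpi 42 pool 3 (1.18, q = 0.055), and for Dkk3 without naive pool 1 (2.09, q = 0.11), naive pool 2 (1.84, q = 0.11), dpi 42 pool 1 (2.25, q = 0.070) or dpi 42 pool 2 (2.04, q = 0.10). Sfrp5 gained OL enrichment on dpi 2 (3.42 ± 0.72, q = 0.0073), with total RNA at 25.6, 25.1 and 18.1 CPM in naive tissue and 7.70, 16.99 and 4.20 CPM on dpi 2.

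The comparisons with dpi 2, chosen after the values were seen, give the OL levels at the later times beside those of dpi 2. On dpi 10, 3 of the 43 genes were higher than on dpi 2 (4.35%) and 1 lower (3.00%), and on dpi 42 5 were higher (3.68%) and 1 lower (2.73%). The genes were Fzd9, Frzb and Axin2 on dpi 10 and Fzd9, Fzd10, Frzb, Dkk2 and Dkk3 on dpi 42, with Wif1 the lower gene each time. Since the dpi 2 libraries enter both this comparison and that with naive tissue, these values are not independent.

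Of the other genes of the pathway, 56 were tested: those for secretion of Wnts, R-spondins and their receptors, co-receptors, the destruction complex, nuclear factors and planar polarity. In naive tissue 22 of them were OL enriched (21.7%) and 16 lower (28.6%), with a median of 0.12 against -0.27 over all genes. The corepressor Tle3 (1.58 ± 0.12, q = 4.9e-10), Wls, which carries Wnts to the cell surface (1.71 ± 0.14, q = 9.8e-10), and the planar polarity gene Prickle1 (1.31 ± 0.11, q = 2.6e-09) had the smallest p among the enriched, and Celsr2 (-1.20 ± 0.11, q = 4.2e-09), Gsk3b, a kinase of the destruction complex (-1.16 ± 0.12, q = 4.8e-08), and Celsr3 (-2.96 ± 0.34, q = 1.7e-07) among the lower. On dpi 2, 14 were enriched (20.5%) and 14 lower (27.2%). On dpi 10 the enriched were 21 (21.2%) and the lower 14 (27.3%). On dpi 42, 18 were enriched (21.1%) and 17 lower (27.0%). Tle3 had the smallest p of the enriched each time (1.67, 1.56 and 1.59).

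In the OL translatome 2 of the 56 were higher (10.2%) and 9 lower (6.85%) on dpi 2. On dpi 10, 5 were higher (6.82%) and 2 lower (1.26%). On dpi 42, 2 were higher (8.54%) and 4 lower (4.08%). The medians were -0.31, -0.13 and -0.11 against 0.00 over all genes. Prickle1 (-2.14 ± 0.12, q = 3.8e-11), Prickle2 (-1.54 ± 0.14, q = 1.9e-08) and Tle1 (-1.55 ± 0.15, q = 4.6e-08) fell on dpi 2, Tle4 (-1.06 ± 0.15, q = 4.6e-05) and the R-spondin receptor Lgr6 (-2.25 ± 0.57, q = 0.0081) on dpi 10, and Prickle2 (-1.32 ± 0.14, q = 4.9e-07), Lgr4 (-1.11 ± 0.16, q = 2.0e-05) and Lgr6 (-1.60 ± 0.55, q = 0.030) on dpi 42. Adgra2, a co-activator of Wnt7 signaling best known from endothelial cells, rose in OL by 1.48, 2.66 and 1.95 and in total RNA by 1.97, 1.88 and 1.37. Sostdc1 rose in OL by 2.66, 3.87 and 3.29, and Nkd2 on dpi 10 by 2.09 ± 0.46 (q = 0.0030).

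In total RNA 2 of the 56 rose at each time (10.0%, 9.20% and 6.66%), which were Adgra2 and Tcf7l2 (1.19, 1.29 and 1.08), while 11, 2 and 1 fell (6.33%, 3.07% and 0.798%). Celsr2 (-1.31), Prickle1 (-1.27) and Btrc (-1.13) had the smallest p among those that fell on dpi 2, Apc2 (-1.17) and Lgr6 (-1.64) fell on dpi 10, and Lgr6 (-1.74) on dpi 42. Differential OL enrichment was called for 2 up (2.95%) and 4 down (2.52%) on dpi 2. On dpi 10 the call was 0 up (1.39%) and 2 down (1.32%), and on dpi 42 it was 0 up (1.44%) and 3 down (1.22%). Wls lost OL enrichment at all 3 times (-1.27 ± 0.23, -1.03 ± 0.23 and -1.13 ± 0.23, with q of 0.0031, 0.017 and 0.0099), as did the nuclear effector Tcf7l2 (-1.63, -1.36 and -1.78, each SE 0.37, with q of 0.012, 0.044 and 0.013). Celsr2 (1.42) and Celsr3 (1.79) gained it and Tle1 (-1.36) and Dvl2 (-1.04) lost it on dpi 2, and Dvl2 lost it on dpi 42 (-1.22).

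Leaving aside the comparisons with dpi 2, 6 of the 43 genes were called in none of the 13 comparisons: Wnt5b, Wnt7a, Wnt9b, Wnt11, Dkk1 and Axin2. Wnt9b and Dkk1 had no counts in OL, and Wnt11 was at 0 to 0.803 CPM in OL and 0.212 to 2.22 CPM in total RNA. Wnt2, Wnt2b, Wnt7b, Wnt10b and Wnt16 were called only as lower in OL in 1 or 2 of the groups. Wnt2 had at most 1 count in OL libraries other than dpi 42 library 1, and reached 0.393 to 2.18 CPM in total RNA on dpi 2, at least 13.3-fold above OL (q = 0.0064). Wnt10b had no counts in OL on dpi 42 and 0.420 to 1.25 CPM in total RNA (at least 7.89-fold lower in OL, q = 0.016). Wnt7a and Wnt7b, ligands with a known role in vessels of the nervous system, were at 9.16 to 18.6 CPM and 27.1 to 57.6 CPM over all total libraries. Wnt5b was at 2.12 to 7.47 CPM in total RNA and at 0 to 16.04 CPM in OL, where dpi 42 library 1 was the highest.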

How the data were processed

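RNA bound to HA-tagged ribosomes (OL) and all RNA (total) of 12 tissue pools were sequenced. The authors aligned the reads to mm10/GRCm38.p6 with STAR and deposited raw counts per gene made with HTSeq 0.10.0, after FastQC 0.10.1. All 24 columns were used, mapped by the labels. The 26 rows without a symbol kept their gene identifier and stayed in the library sizes and the count filter.

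Counts were tested with edgeR 4.0.16 (R 4.3.3), TMM scaling and the quasi-likelihood test on 8 group means (16 residual degrees of freedom), for genes whose counts summed to 10 or more. Differential OL enrichment was fitted with tissue pool as a block (8 residual degrees of freedom). A floor of 3 counts per library stood for counts of 0. Alternatives were RLE scaling, library sizes alone, DESeq2 1.42.0, every gene with a count, filterByExpr, only the groups compared, a replicate block and leaving out libraries. The procedure was tested on simulated counts with the same spread for every gene. Changes in genes with few counts and libraries that stand apart in astrocyte markers were not simulated. Members, lists and named genes (members called in OL change or differential OL enrichment, or in total change at all 3 times) were chosen with earlier results of these data known. Floors cover counting error only, and ± marks an SD over pools beside levels or an SE of the fit beside log2 differences. A comparison of protein sequences was not made. OL and total libraries of a pool deviated together in naive (r from 0.0945 to 0.180) and dpi 2 (0.155 to 0.171) pools, less so in dpi 10 pools (0.0432 to 0.101, against at most 0.00919 between pools) and not in dpi 42 pools (-0.0392 to 0.0178). The promoter that drives Cre is not reported here.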

Additional observations from a re-analysis of the deposited data

Results flagged for a closer look

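The changes in OL and in total RNA differed by the test of differential OL enrichment (edgeR, with tissue pool as a block) for 12 results, given as log2 values. On dpi 2 these were Sfrp5 (3.42), Sfrp4 (-2.99), Apcdd1 (-1.30) and Fzd7 (-1.21). On dpi 10 they were Sfrp4 (-2.92) and Fzd7 (-1.63). On dpi 42 they were Dkk3 (2.35), Sfrp1 (1.71), Frzb (1.25), Fzd7 (-1.30), Apcdd1 (-1.09) and Lrp6 (-1.02).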

How the results depend on the processing

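Of 161 calls of members, 114 were kept without any 1 library (85 of 103 in OL enrichment, 10 of 23 in OL change, 14 of 23 in total change and 5 of 12 in differential OL enrichment). Over 2402 alternatives the call was lost in 282 and the direction turned in 0. In differential OL enrichment a whole pool, OL and total, was left out at a time. Each such fit entered these counts for both libraries of its pool. Leaving out 1 library, the members called were 17 to 30 in naive OL enrichment, 27 to 33 on dpi 2, 20 to 29 on dpi 10 and 25 to 28 on dpi 42. In OL change they were 6 to 15, 3 to 8 and 5 to 13 on dpi 2, 10 and 42, and in total change 5 to 11, 6 to 7 and 4 to 5. Leaving out 1 pool, they were 3 to 4, 1 to 3 and 1 to 5 in differential OL enrichment. The counts of members in OL change were highest without naive OL library 3 (15, 8 and 13) and lowest without dpi 2 OL library 2 (6), naive OL library 1 (3) and dpi 42 OL library 1 (5). Without the 4 OL libraries high in astrocyte markers, an alternative chosen after seeing the data, OL change called 14, 12 and 6 members, and differential OL enrichment 5 on dpi 10 and 3 on dpi 42. With only the groups compared in the fit, OL change called 3, 2 and 2 members, total change 16, 15 and 11, and differential OL enrichment 2 on dpi 42. DESeq2 called 7 members in OL change on dpi 10 and 5 in differential OL enrichment on dpi 10. Without tissue pool 2 of dpi 2, OL change called 5 members on dpi 2. Without the libraries of conflicting labels, OL change called 5 and differential OL enrichment 2 members on dpi 42. With the replicate block, OL change on dpi 42 called 7 members. The cause of these moves was not tested. With library sizes alone, which moved the median of all genes by -0.50 to -0.57 in OL enrichment, the calls of Znrf3 (0.30 in naive tissue) and Fzd8 (0.34 on dpi 2) were lost.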
